A study of Mus musculus with 39 samples.

Results

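The steroidogenic genes of Leydig cells were followed through postnatal development of the mouse testis, in organ culture and in the animal. The genes named were Scarb1, Star, Cyp11a1, Hsd3b1, Cyp17a1, Hsd17b3, Srd5a1, Akr1c14, Lhcgr and Nr5a1, and their probes were found by the gene symbol of the platform annotation. Of these 10 genes, 8 had a probe under their symbol (15 probes), and 7 had a probe detected above background (detection p below 0.01) on at least 3 arrays. The 9 probes of these 7 genes stood among 23665 probes that met the same rule, of 45281 on the array. For genes with more than 1 such probe the brightest was the main one, which gave 12518 genes to test.

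Total RNA of whole testes was hybridised to single-colour bead arrays. The cultured testes were taken at 7.5 days post partum (dpp) and kept for 2, 4, 6, 7, 9 or 14 days, so that they are set here beside testes that reached 9.5, 11.5, 13.5, 14.5, 16.5 and 21.5 dpp in the animal. The in vivo groups were those ages and 7.5 dpp, the age at which culture began. Each of the 13 groups had 3 samples, and 2 arrays were used for 13.5 dpp in vivo. Male mouse testes without any stated genotype or treatment made up all groups; the strain, the culture medium and any added hormone are not given here, nor whether replicates came from separate animals, so p-values measure the spread between these samples, which may be technical.

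Leydig cells lie between the seminiferous tubules and make androgens. Luteinizing hormone binds its receptor, Lhcgr, and acts through cyclic AMP. Scarb1 takes up cholesterol from lipoproteins, Star carries it to the inner mitochondrial membrane, and Cyp11a1 cleaves its side chain to give pregnenolone. Hsd3b enzymes, Cyp17a1 and Hsd17b3 then lead to testosterone, which Srd5a1 and Akr1c14 reduce further, a route that is prominent in immature Leydig cells. Nr5a1 (steroidogenic factor 1) is a nuclear receptor that activates many of these genes and is also present in Sertoli cells. In the mouse a fetal population of Leydig cells is joined after birth by an adult one.

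Per array, 35.6% to 43.9% of probes gave a detected signal, mean signals per array lay between 368 and 789, and replicates of a group correlated at 0.933 to 0.993. Levels are given below as log2 of the background-corrected, quantile-normalized signal, in the order of replicates 1, 2 and 3, and differences as log2 differences with their standard error (SE), where a difference of 1 is a 2-fold change. A gene was called when its limma adjusted p was below 0.05 and its change at least 2-fold. Because different probes bind with different strength, a level is compared between samples and not between genes. The array libraries labelled in vivo 9.5 dpp replicate 2, in vivo 13.5 dpp replicate 3, in vivo 16.5 dpp replicate 2, culture 11.5 dpp replicate 3 and culture 16.5 dpp replicate 3 stood apart from their groups. In the library labelled culture 11.5 dpp replicate 3, pachytene spermatocyte markers summed to 36590 signal units, against 5718 and 7403 in the other replicates. For the library labelled culture 16.5 dpp replicate 3 that sum was 7699, against 35390 and 23640. It was 33290 in the library labelled in vivo 13.5 dpp replicate 3 and 6903 in replicate 2. In vivo 16.5 dpp had 11080 in replicate 2, against 48490 and 98410. The library labelled in vivo 9.5 dpp replicate 2 had a Sertoli cell sum of 42300, against 81960 and 84520, and the lowest share of detected probes. By its pachytene sum, the library labelled culture 11.5 dpp replicate 3 lay near replicates 1 and 2 of culture 16.5 dpp, and the one labelled culture 16.5 dpp replicate 3 near replicates 1 and 2 of culture 11.5 dpp. The library labelled in vivo 16.5 dpp replicate 2 lay nearer to replicate 2 of in vivo 13.5 dpp than to its own group, and the one labelled in vivo 13.5 dpp replicate 3 nearer to replicate 1 of in vivo 16.5 dpp than to its own. An exchange of labels was not tested, so values printed for these libraries may belong to another age. The members' calls at the ages these 5 arrays touch are also given without them. Among 20 named genes that are no members, 62 differences between culture and in vivo were called over the 6 ages, and 59 of these were also called without the 5 arrays. The 3 that were lost were Akr1c12 at 9.5 dpp (-0.42, limma adjusted p = 0.464), Dlk1 at 11.5 dpp (-0.76, adjusted p = 0.0966) and Adcy6 at 13.5 dpp (0.92, adjusted p = 0.0713). Newly called without the 5 arrays were Apoe at 9.5 dpp (1.02, adjusted p = 0.0316), and Crem and Klk1b27 at 16.5 dpp (-1.36 and -1.89, adjusted p = 0.00305 and 0.0179). Counts over a list are given with all arrays.

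Cyp17a1, the enzyme that hydroxylates and cleaves pregnenolone and progesterone on the way to androgens, had the largest differences of the 7 measured members at each of the 6 ages. Its in vivo group means lay between 8.64 and 12.71, where the dimmest detected probe of an array lay at 5.29 to 6.12. Those of Scarb1, Star, Cyp11a1, Hsd3b1 and Nr5a1 lay between 4.77 and 7.91. A fall of 4.95 or more could not have been read for these 5. The Cyp17a1 probe was detected on all 38 arrays. At 9.5 dpp its level was 6.39, 6.58 and 5.71 in cultured testes, against 10.02, 11.98 and 11.54 in vivo. After 4 days the cultures had 6.32, 6.95 and 5.60, against 12.89, 11.71 and 11.24 in vivo. At 13.5 dpp it had 5.66, 6.08 and 7.02 in culture, against 12.32 and 10.73 in vivo. Every culture array lay below every in vivo array of its age at these 3 ages. The difference was -4.95 ± 0.88 (SE) at 9.5 dpp, a 30.9-fold lower signal in culture (limma, adjusted p = 0.000131). Without the 5 arrays it was -4.55 (adjusted p = 0.0021). At 11.5 dpp it was -5.66 (50.5-fold, adjusted p = 3.98e-05), and at 13.5 dpp -5.27 ± 0.98 (38.6-fold, adjusted p = 0.000386). Without the 5 arrays these were -5.31 (adjusted p = 0.000527) and -6.07 (adjusted p = 0.00264), for 13.5 dpp with 1 in vivo array left, which is assumed to vary like the others. In the authors' deposited table, which holds all 3 samples of 13.5 dpp in vivo, Cyp17a1 had log2 values of 7.59, 7.68 and 7.97 in culture, against 11.09, 12.15 and 10.57 in vivo. In bulk tissue fewer Leydig cells and less RNA per Leydig cell cannot be told apart, here and in all results that follow.

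The in vivo level of Cyp17a1 was itself divided at 14.5 and 16.5 dpp. At 14.5 dpp the cultures had 7.71, 6.22 and 7.33, against 7.42, 11.44 and 7.67 in vivo. By 16.5 dpp the cultured testes had 5.66, 6.07 and 6.54, against 11.52, 8.34 and 6.05 in vivo. A single in vivo array at each of these ages stayed near the level of the younger testes. The other two at 14.5 dpp lay within the culture range. At 16.5 dpp replicate 3 lay within it, while the library labelled replicate 2, with 8.34, lay above all 3 cultures, so the groups overlapped at both ages. The standard deviation over replicates was 2.25 at 14.5 dpp and 2.74 at 16.5 dpp in vivo, larger than that of 99.9% of genes in the same groups. No difference was called at 14.5 dpp (-1.76, limma adjusted p = 0.13), whereas at 16.5 dpp culture was lower by a called difference of -2.55 (5.83-fold, adjusted p = 0.0365). That call rested on single arrays: it was lost without in vivo replicate 1 (-1.11, adjusted p = 0.383), without culture replicate 1, 2 or 3 (adjusted p = 0.111, 0.066 and 0.0617), and without the 5 arrays together (-2.92, adjusted p = 0.0533). It was lost too with the authors' values of the same arrays (adjusted p = 0.0946), without background correction (-2.07, adjusted p = 0.0503) and with only the compared groups fitted (adjusted p = 0.228).

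At 21.5 dpp Cyp17a1 had 7.96, 7.31 and 7.53 in cultured testes, against 12.56, 12.74 and 12.83 in vivo. These in vivo arrays agreed closely, and the cultures were again far below them. The difference was -5.11, or 34.5-fold (limma, adjusted p = 1.01e-05). Over development in vivo, the level at 7.5 dpp was 11.72, 12.30 and 11.88. Relative to that start, the in vivo level was lower at 14.5 dpp by a difference of -3.13 (adjusted p = 0.00681), a call lost without in vivo 14.5 dpp replicate 1 (-2.41, adjusted p = 0.0629) or 3 (-2.54, adjusted p = 0.0559). It then rose by 3.87 between 14.5 and 21.5 dpp (14.6-fold, adjusted p = 0.000337). At 21.5 dpp all 3 in vivo arrays lay above all 3 at 7.5 dpp, but the difference was not called (0.74, adjusted p = 0.458). Its 95% confidence interval ran from -1.04 to 2.53. Against the tissue that entered culture, cultured testes fell by 5.74 after 2 days (53.5-fold), by 4.88 after 7 days and by 4.37 after 14 days (limma, adjusted p = 1.56e-05, 0.000148 and 0.000254). All 3 cultures at day 14 lay above all 3 at day 2, but the difference of 1.37 did not pass the test (adjusted p = 0.219). Its SE there was 0.875, with a spread shared by all groups. With only these 2 groups fitted the SE was 0.28 and the difference passed (limma, adjusted p = 0.00464).

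**Figure D1:**
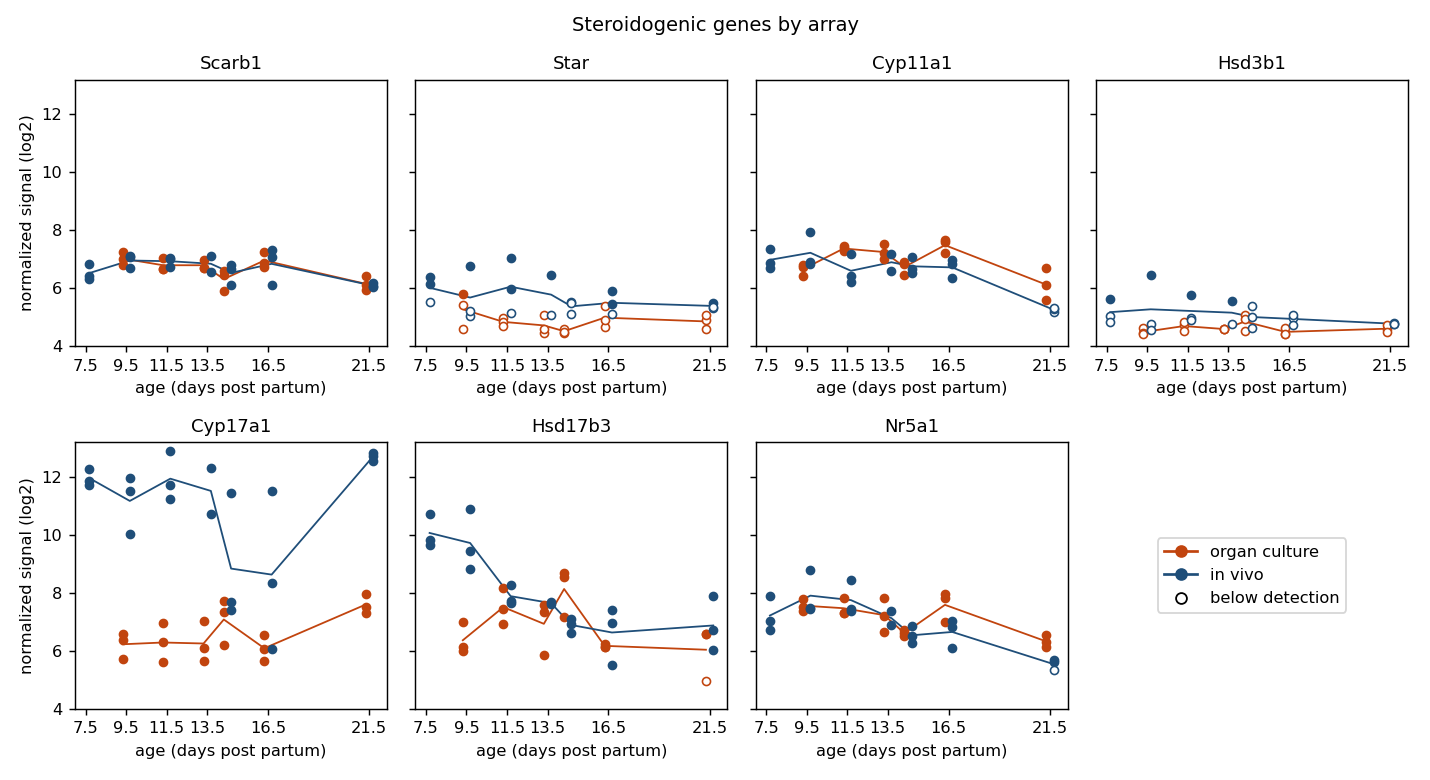
Level of the 7 measured genes on each array (log2 normalized signal, y axis) against age in days post partum (x axis), with organ cultures in orange, in vivo testes in blue, lines through group means and open circles for values below detection. Cyp17a1 lay between 5.60 and 7.96 in all cultures and fell apart in vivo at 14.5 and 16.5 dpp, while Scarb1 overlapped between the conditions at every age.

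Insl3, a peptide hormone of Leydig cells, was high on all of these in vivo arrays. Where Cyp17a1 read 7.42, 11.44 and 7.67 at 14.5 dpp in vivo, Insl3 read 10.99, 11.55 and 11.45. At 16.5 dpp Insl3 read 11.55, 11.17 and 10.37. The spread of Insl3 within those groups was thus small beside that of Cyp17a1. In culture Insl3 was lower than in vivo at each age, by differences from -3.67 to -2.26 (limma, adjusted p at most 1.58e-05), and no culture array reached an in vivo one. Among adrenal cortex markers, Cyp11b1, Cyp21a1 and Sult2a1 were detected on none of the 38 arrays, and 2 of the 6 genes in the list were measured. Their summed signal was 119.3, 278 and 126.8 at 14.5 dpp in vivo and 253.8, 102.2 and 103.6 at 16.5 dpp in vivo. Within each of these groups it was highest on the array with the most Cyp17a1. Between groups this order did not hold throughout. In culture at 9.5 dpp the sum was 326.7, 307.9 and 607.9, where Cyp17a1 read 6.39, 6.58 and 5.71. In vivo at 7.5 dpp it was 120.1, 117 and 152.5, where Cyp17a1 read 11.72, 12.3 and 11.88. Both were high in vivo at 21.5 dpp, with sums of 534.4, 481.4 and 396.7 and Cyp17a1 at 12.56, 12.74 and 12.83. The part of these adrenal signals in the Cyp17a1 result was not tested.

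**Figure D2:**
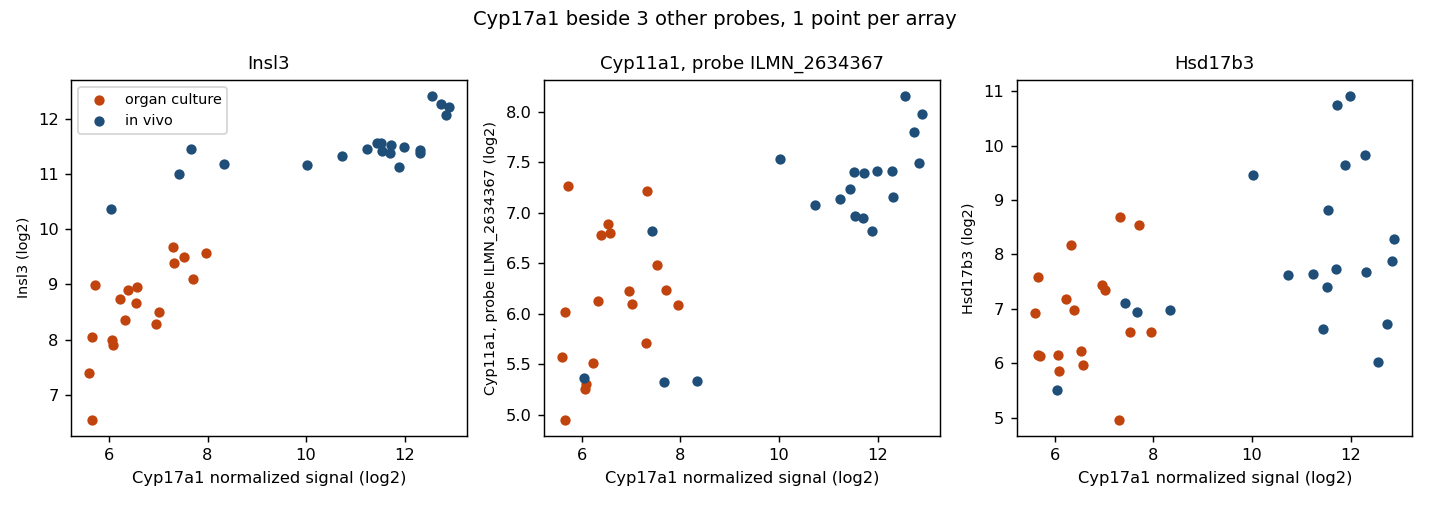
Level of Insl3, of the second Cyp11a1 probe and of Hsd17b3 (y axes, log2 normalized signal) against that of Cyp17a1 (x axis, log2 normalized signal), with 1 point for each of the 38 arrays, organ cultures in orange and in vivo testes in blue. In vivo arrays with low Cyp17a1 kept an Insl3 level of at least 10.37, above all cultures.

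Hsd17b3, which reduces androstenedione to testosterone, declined with age in vivo. This enzyme is found in Sertoli cells of the fetal mouse testis and in adult Leydig cells. The in vivo level was 10.74, 9.83 and 9.65 at 7.5 dpp, 9.45, 10.91 and 8.82 at 9.5 dpp, 8.29, 7.74 and 7.64 at 11.5 dpp, and 7.68 and 7.62 at 13.5 dpp. It was 7.11, 6.63 and 6.94 at 14.5 dpp, 7.41, 6.98 and 5.52 at 16.5 dpp and 6.03, 6.73 and 7.88 at 21.5 dpp. All arrays from 14.5 dpp on lay below all arrays at 7.5 and 9.5 dpp. Between 7.5 and 14.5 dpp it fell by 3.18 (9.07-fold), and between 7.5 and 21.5 dpp it fell by 3.20 (9.16-fold), with limma adjusted p of 6.08e-05 and 6.8e-06. At 21.5 dpp, where Cyp17a1 was high in vivo, Hsd17b3 was thus still low.

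In culture Hsd17b3 was low already on day 2. At 9.5 dpp the cultures had 6.99, 5.98 and 6.13, against 9.45, 10.91 and 8.82 in vivo. The groups did not overlap, and the difference was -3.36 ± 0.55 (10.3-fold, limma adjusted p = 5.65e-05). Without the 5 arrays it was -2.77 (adjusted p = 0.00169). Later cultures had 8.17, 7.43 and 6.93 at 11.5 dpp, 7.58, 5.87 and 7.35 at 13.5 dpp, 8.55, 7.18 and 8.68 at 14.5 dpp, 6.15, 6.15 and 6.22 at 16.5 dpp, and 6.57, 4.97 (below detection) and 6.58 at 21.5 dpp. From 11.5 dpp on no difference from the same age in vivo was called. At 14.5 dpp all 3 cultures lay above all 3 in vivo arrays, by 1.25 (adjusted p = 0.0881), and without culture replicate 2 this difference passed the test (1.72, adjusted p = 0.0389). Against the start, Hsd17b3 fell by 3.71 after 2 days and by 4.03 after 14 days (13.1-fold and 16.4-fold, limma adjusted p = 1.11e-05 and 2.1e-06). After 7 days it fell by 1.94 (adjusted p = 0.0104), a call lost without in vivo 7.5 dpp replicate 1 (-1.60, adjusted p = 0.0721) or culture 14.5 dpp replicate 2 (-1.46, adjusted p = 0.0856). Of the 3 Hsd17b3 probes, which the annotation gives the same transcript, this is the only one detected on any array.

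Markers of other cells moved with the early loss of Cyp17a1 and Hsd17b3. At 9.5 dpp the 10 measured of 13 macrophage markers summed to 389.8 to 553.2 signal units in culture, against 2919 to 6455 in vivo, and all 10 were called lower. The 5 measured of 9 erythrocyte markers summed to 11030 to 13670 in culture, against 32040 to 99190 in vivo. The 10 endothelial markers went the other way, with 7602 to 9214 in culture, against 4051 to 4987 in vivo. At 21.5 dpp the macrophage sum was 18180 to 22540 in culture, against 3468 to 4366 in vivo, and interstitial progenitor markers (10 measured of 12) summed to 16880 to 20470, against 6473 to 7374. Markers of spermatids summed to 290.1 to 396.2 in culture, against 12690 to 21020 in vivo at that age. The part of these cells in the results on the members was not tested.

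Cyp11a1, the cholesterol side-chain cleavage enzyme, was read by 2 detected probes that moved apart, although the annotation gives both the same transcript. RefSeq lists 2 starts for the gene (GRCm38.p6, plus strand), and the sources used here do not say which start the RNA read by each probe has. Both start regions are shown because the probes disagree, and that of Hsd17b3 (minus strand) for its loss in culture, each from 250 bases before to 50 after the start, 5′ to 3′, with the motif AGGTCA, the core that Nr5a1 binds, in capitals.
Cyp11a1 upstream start, chr9:57997774-57998073: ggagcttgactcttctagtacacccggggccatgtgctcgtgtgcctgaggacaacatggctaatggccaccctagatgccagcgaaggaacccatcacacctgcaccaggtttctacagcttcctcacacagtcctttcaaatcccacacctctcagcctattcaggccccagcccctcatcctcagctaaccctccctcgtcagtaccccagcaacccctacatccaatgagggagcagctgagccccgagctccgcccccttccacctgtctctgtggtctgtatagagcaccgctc
Cyp11a1 downstream start, chr9:58014702-58015001: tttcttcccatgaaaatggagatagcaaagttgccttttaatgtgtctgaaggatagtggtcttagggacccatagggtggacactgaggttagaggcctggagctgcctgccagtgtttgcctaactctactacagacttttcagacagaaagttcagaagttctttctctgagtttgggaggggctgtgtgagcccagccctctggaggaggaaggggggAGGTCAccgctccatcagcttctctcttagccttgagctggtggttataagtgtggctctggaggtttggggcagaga
Hsd17b3 start, chr13:64089152-64089451: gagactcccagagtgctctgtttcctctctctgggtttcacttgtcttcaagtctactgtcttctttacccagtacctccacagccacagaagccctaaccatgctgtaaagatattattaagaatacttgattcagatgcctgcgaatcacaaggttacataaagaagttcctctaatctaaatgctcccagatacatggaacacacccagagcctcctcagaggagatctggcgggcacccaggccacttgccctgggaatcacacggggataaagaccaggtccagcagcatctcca
AGGTCA was found once in the downstream Cyp11a1 window and in neither other window, on either strand. Of all 32851 RefSeq windows of this length, 16.3% hold AGGTCA on either strand. The longer AAGGTCA, which contains it, is in 4.72% of all windows and in none of these. RefSeq windows were found for 6 of the 10 genes.

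The main Cyp11a1 probe (ILMN_2467151) showed no called loss in culture. At 11.5 dpp it had 7.28, 7.44 and 7.39 in culture, against 7.18, 6.22 and 6.40 in vivo. At 16.5 dpp it had 7.59, 7.67 and 7.20 in culture, against 6.84, 6.97 and 6.35 in vivo. All cultures lay above all in vivo arrays at both ages, by 0.77 each (limma, adjusted p = 0.0567 and 0.0566). Without the 5 arrays the 16.5 dpp difference was 1.03 and passed the test (adjusted p = 0.0187), and at 11.5 dpp it passed without in vivo replicate 1 (1.06, adjusted p = 0.0214). At 21.5 dpp cultures read 6.69, 6.10 and 5.58, while all 3 in vivo arrays were below detection (5.18, 5.28 and 5.31). Culture was therefore at least 1.61-fold higher there (adjusted p = 0.0109), a difference of 0.87 that did not reach 2-fold. It did so without culture replicate 3 (1.14, adjusted p = 0.00248). The starting tissue at 7.5 dpp had 7.36, 6.89 and 6.69, and in vivo 14.5 dpp had 6.54, 7.06 and 6.67. The in vivo level at 21.5 dpp was at least 2.92-fold lower than at 7.5 dpp and at least 2.5-fold lower than at 14.5 dpp (limma, adjusted p = 4.52e-06 and 5.13e-05). Both differences fell short of 2-fold with either set of authors' values (-0.45 and -0.37) and without background correction (-0.99 and -0.83). In culture, day 14 differed from the start by -0.86 (adjusted p = 0.0221), and reached 2-fold without 7.5 dpp replicate 3 (adjusted p = 0.0193) or culture 21.5 dpp replicate 1 (-1.14, adjusted p = 0.0055).

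The second Cyp11a1 probe (ILMN_2634367) behaved like Cyp17a1 at the last age. At 21.5 dpp it had 6.09, 5.71 and 6.48 in culture, against 8.16, 7.80 and 7.49 in vivo. Culture was lower by a difference of -1.72 ± 0.50 (limma over all kept probes, adjusted p = 0.00435), at the age where the main probe read higher. With either set of authors' values this difference was -0.66, under 2-fold (adjusted p at most 0.00057). At 11.5 dpp it had 6.13, 6.23 and 5.57 in culture, against 7.98, 6.95 and 7.14 in vivo. No array overlapped, but that call (-1.38, adjusted p = 0.0435) was lost without in vivo replicate 1 or 3 or any one culture array (-1.51 to -1.07, adjusted p = 0.0601 to 0.203), and without the 5 arrays (-1.18, adjusted p = 0.0951). In vivo at 14.5 dpp it read 6.82, 7.24 and 5.32 (below detection), and at 16.5 dpp 7.41, 5.33 and 5.36. The highest array in each of these in vivo groups was also the one highest for Cyp17a1. The in vivo level rose by 1.36 between 14.5 and 21.5 dpp (adjusted p = 0.0221), a call lost without 14.5 dpp replicate 3 (0.79, adjusted p = 0.21) or 21.5 dpp replicate 1 (1.19, adjusted p = 0.0808), and under 2-fold with either set of authors' values or without background correction (0.52 and 0.93). Over the 13 group means the 2 probes had a Pearson correlation of -0.516, so no single Cyp11a1 level can be given. The remaining probe under this symbol was detected on no array.

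**Figure D3:**
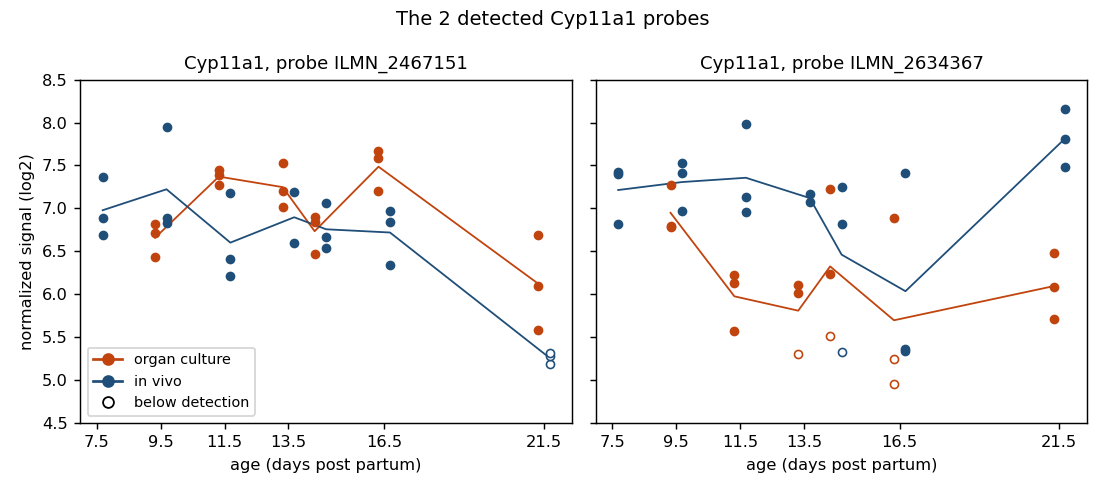
Level of the 2 detected Cyp11a1 probes (log2 normalized signal, y axis) against age in days post partum (x axis), with organ cultures in orange, in vivo testes in blue, lines through group means and open circles for values below detection. At 21.5 dpp in vivo the probe on the left was below detection on all 3 arrays while the probe on the right read 7.49 to 8.16.

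Star, whose protein moves cholesterol into mitochondria in response to hormone, was near the detection limit. Its probe was detected on 1 of 18 culture arrays and on 9 of 20 in vivo arrays. Its calls as lower in culture thus rest partly on the values that let it into the test. The detected culture was replicate 3 at 9.5 dpp, with 5.79. The in vivo level was 5.53 (below detection), 6.13 and 6.38 at 7.5 dpp, and the highest values were 7.05 in replicate 1 at 11.5 dpp and 6.77 in the library labelled replicate 2 at 9.5 dpp. At 11.5 dpp all 3 cultures were below detection, against 7.05, 5.96 and 5.14 (below detection) in vivo. That difference was called, at -1.22 ± 0.40 and at least 1.38-fold (limma, adjusted p = 0.0295), but it was lost without in vivo replicate 1 (-0.72, adjusted p = 0.264) or culture replicate 1, 2 or 3 (adjusted p = 0.0545, 0.0711 and 0.0802). Without the 5 arrays it was -1.15 (adjusted p = 0.0257). At 13.5 dpp it was not called with all arrays, but was without the 5 arrays (-1.75, adjusted p = 0.0168, with 1 in vivo array) and with median centring (-1.18, adjusted p = 0.0362). Against the start, Star fell by at least 1.19-fold after 7 days and at least 1.55-fold after 14 days of culture (limma, adjusted p = 0.00631 and 0.0239). The day 14 call was lost without 7.5 dpp replicate 2 or 3 or culture 21.5 dpp replicate 2 (-1.10, -0.98 and -1.03, adjusted p = 0.0668, 0.0982 and 0.0868). The calls at 11.5 dpp, day 7 and day 14 were all lost with either set of authors' values (-0.30 to -0.22) and without background correction (-0.82 to -0.59). Each of these differences was under 2-fold. Their limma adjusted p stayed below 0.05, except for day 14 with the authors' values (0.0567 and 0.052).

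Scarb1, the lipoprotein receptor that supplies cholesterol esters, was detected on all 38 arrays. Its 13 group means spanned 0.94 log2 units, with the highest, 7.02, after 2 days of culture and the lowest, 6.09, at 21.5 dpp in vivo. Culture and in vivo differed by -0.21 to 0.12 over the 6 ages, and arrays of the 2 conditions overlapped at each. No comparison called it. Its fall between day 2 and day 14 of culture was -0.87 ± 0.26 (limma, adjusted p = 0.00741), or 1.83-fold, and reached 2-fold without culture 21.5 dpp replicate 2 (adjusted p = 0.00766).

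Hsd3b1 forms progesterone from pregnenolone. Its probe was detected on 0 of 18 culture arrays and on 4 in vivo arrays, 1 each at 7.5, 9.5, 11.5 and 13.5 dpp (5.64, 6.47, 5.76 and 5.55), with no called difference. At 9.5 dpp a call appeared without in vivo replicate 1 or 3 (-1.03 and -1.14, adjusted p = 0.0225 and 0.00954) for fits that keep the library labelled replicate 2, the one with 6.47. A probe for Hsd3b6, the isoform of adult mouse Leydig cells, was detected on no array. Hsd3b2, an isoform better known outside the testis, was higher in culture at 11.5 and 13.5 dpp, by 1.28 and 1.38 (limma, adjusted p = 0.0117 and 0.0211).

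The last step, reduction of testosterone, could hardly be followed. Srd5a1 and Lhcgr had no probe under these symbols in the annotation used here. For Akr1c14, which acts on the products of 5-alpha reduction, 1 of the 38 arrays gave a detected value with one probe (6.15 in the library labelled in vivo 9.5 dpp replicate 2) and none with the other. Akr1c12, a related aldo-keto reductase, was called lower in culture at all 6 ages. Its difference was -1.07 at 9.5 dpp, where arrays overlapped (limma, adjusted p = 0.0451, lost without the 5 arrays as given above), and at 16.5 dpp it was at least 3.78-fold (adjusted p = 1.71e-05). In vivo it rose by 2.31 between 7.5 and 21.5 dpp (adjusted p = 4.4e-06), whereas among the members' main probes Cyp17a1 alone was called higher with age, between 14.5 and 21.5 dpp. Srd5a3, whose main role is in glycosylation, was 2.02-fold higher in culture at 21.5 dpp (adjusted p = 4.73e-05).

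Nr5a1 was not called different between culture and in vivo at any of the 6 ages. At 9.5 dpp it read 7.53, 7.79 and 7.38 in culture, against 7.46, 8.80 and 7.47 in vivo. At 16.5 dpp it read 7.81, 7.01 and 7.95, against 7.02, 6.83 and 6.11. At 21.5 dpp it read 6.32, 6.54 and 6.12, against 5.32 (below detection), 5.67 and 5.63. Groups overlapped at both earlier ages, and at 21.5 dpp all cultures lay above all in vivo arrays. The difference was 0.94 at 16.5 dpp and 0.78 at 21.5 dpp (limma, adjusted p = 0.0579 and 0.057). The 16.5 dpp difference passed without culture replicate 2 (1.23, adjusted p = 0.0213). The 95% confidence interval at 9.5 dpp ran from -1.07 to 0.38. The in vivo mean there was 7.91, and the dimmest detected probe of the 3 cultures lay at 5.48 to 5.59. The Nr5a1 probe therefore could not have shown a fall of the size seen for Cyp17a1. In vivo Nr5a1 fell by 1.68 between 7.5 and 21.5 dpp (3.2-fold, adjusted p = 0.000109), where the median of all genes was -0.34. With either set of authors' values that fall was -0.51, under 2-fold (adjusted p at most 0.008). Against 14.5 dpp it was 1.99-fold lower at 21.5 dpp (adjusted p = 0.016), and reached 2-fold without 14.5 dpp replicate 2 or 3 or 21.5 dpp replicate 2 or 3 (-1.13 to -1.02, adjusted p = 0.017 to 0.0323). In culture it fell by 1.24 between day 2 and day 14 (2.36-fold, adjusted p = 0.00629), a call lost with either set of authors' values (-0.47) and without background correction (-0.86). Against the start, day 14 reached 2-fold without 7.5 dpp replicate 3 (-1.14, adjusted p = 0.0269). Sertoli cell markers (10 measured of 12) summed to 66900 to 75760 at 7.5 dpp in vivo. At 21.5 dpp they summed to 40970 to 46790 in vivo and 82100 to 86350 in culture. Pachytene spermatocyte markers summed to 2706 to 4559 at 7.5 dpp and 115400 to 118100 at 21.5 dpp in vivo. The part of these cells in the Nr5a1 values was not tested. A second Nr5a1 probe had a correlation of 0.966 with the main one over the 13 group means. It too was lower in vivo at 21.5 than at 7.5 dpp (-1.17, adjusted p = 0.00362), a call lost without 7.5 dpp replicate 1 (-0.72, adjusted p = 0.0696). It was also lower at day 14 than at day 2 of culture (-1.02, adjusted p = 0.0205), lost without culture 21.5 dpp replicate 2 or culture 9.5 dpp replicate 1 (-0.95 and -0.99, adjusted p = 0.0632 and 0.0549). Its call of a higher level in vivo at 9.5 than at 7.5 dpp (1.12, adjusted p = 0.0472) was lost without 9.5 dpp replicate 2 (0.76, adjusted p = 0.302) and without 7.5 dpp replicate 2 or 3 (1.15 and 0.65, adjusted p = 0.0954 and 0.289). These 3 calls of the second probe were lost with either set of authors' values and without background correction as well, where each difference was under 2-fold.

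**Figure D4:**
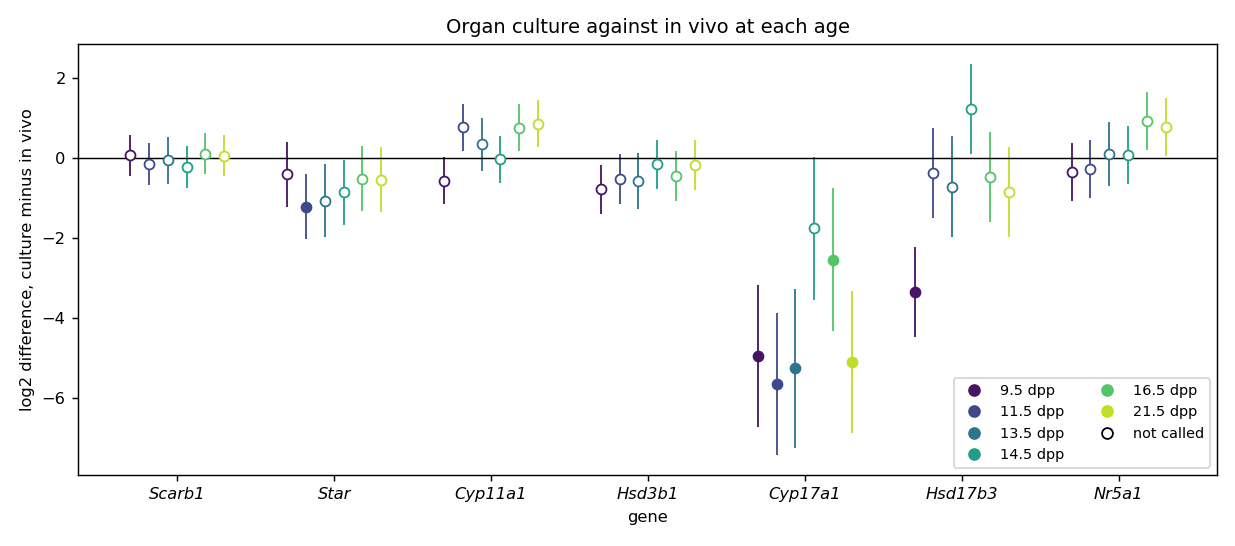
Log2 difference between organ culture and in vivo (y axis) for each measured gene (x axis) at the 6 shared ages in colours from early to late, with bars for the 95% confidence interval, filled points for called differences and open points for the rest. Cyp17a1 had called differences of -5.66 to -2.55 at 5 ages, Hsd17b3 at 9.5 dpp alone and Star at 11.5 dpp alone.

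The calls of the 7 measured members were counted beside those of all genes. Culture called 2 of 7 lower at 9.5 dpp (Cyp17a1 and Hsd17b3), where 4.02% of all genes were called lower. It called 2 lower at 11.5 dpp (Cyp17a1 and Star), beside 4.02% of all genes, and Cyp17a1 alone at 13.5, 16.5 and 21.5 dpp, beside 2.72%, 3.16% and 15.9%. Limma called no member at 14.5 dpp (11.3% of all genes in either direction), with an unadjusted p below 0.05 for 2 of them (Star lower and Hsd17b3 higher). Star was below detection there on all arrays of both groups. No member was called higher in culture at any of the 6 ages, at which 4.69%, 3.93%, 4.07%, 5.56%, 5.18% and 20% of all genes were. An unadjusted p below 0.05 for a higher level was reached in 6 of 42 member and age pairs (Cyp11a1 at 3 ages, Nr5a1 at 2 and Hsd17b3 at 14.5 dpp). The members' median difference was -0.57 at 9.5 dpp and -0.17 at 21.5 dpp, against 0.00 and 0.25 over all genes. With 7 members each median is the value of 1 gene. That was Cyp11a1 at 9.5 dpp and Hsd3b1, below detection on all arrays of both groups, at 21.5 dpp. Star and Hsd3b1 met the detection rule mainly through in vivo arrays, so these medians do not describe the pathway as a whole. The calls of Star as lower in culture, counted here, thus rest partly on the values that let it into the test. Against the start of culture, 2 of 7 were called lower after 2 days (4.31% of all genes), 3 after 7 days (4.28%) and 3 after 14 days (7.76%), in each case with Cyp17a1 and Hsd17b3 among them and Star added at the later times. Between day 2 and day 14 of culture 1 member was called lower, Nr5a1 (9.24% of all genes). In vivo limma called no member between 7.5 and 9.5 dpp (2.1% of all genes in either direction), where 0 of 7 had an unadjusted p below 0.05. Cyp17a1 and Hsd17b3 were lower at 14.5 dpp than at 7.5 dpp, 2 of 7 beside 6.93% of all genes. At 21.5 dpp 3 members, Cyp11a1 (main probe), Hsd17b3 and Nr5a1, were lower than at 7.5 dpp, a comparison in which 28.7% of all genes were called lower. Against 14.5 dpp Cyp17a1 was higher and Cyp11a1 (main probe) lower at 21.5 dpp (36.1% of all genes in either direction). The second Cyp11a1 probe was called higher in that comparison (1.36, limma over all kept probes, adjusted p = 0.0221). Against 7.5 dpp it was not called (0.60, adjusted p = 0.295).

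The fold that separated culture from in vivo was tested for change with age. Between 14.5 and 21.5 dpp, the change in culture minus that in vivo was -3.35 ± 1.24 for Cyp17a1 and -2.08 ± 0.78 for Hsd17b3 (limma interaction, adjusted p = 0.0318 and 0.0345), and 12.2% of all genes were called negative in this test. These calls were lost without some single arrays, 8 of 12 for Cyp17a1 (-3.34 to -2.64, adjusted p = 0.0511 to 0.11) and 6 of 12 for Hsd17b3 (-2.10 to -1.55, adjusted p = 0.0518 to 0.131). For Hsd17b3 the call was lost as well with median centring (-1.50, adjusted p = 0.0998) and with either set of authors' values (-0.90, adjusted p up to 0.0878). The culture difference at 21.5 dpp minus that at 9.5 dpp was 1.43 ± 0.41 for the main Cyp11a1 probe and 2.52 ± 0.78 for Hsd17b3 (adjusted p = 0.00467 and 0.00837), beside 21.4% of all genes called positive. The value for Cyp11a1 was under 2-fold with either set of authors' values (0.42) and without background correction (0.86). For Hsd17b3 the gap at 9.5 dpp had thus shrunk by 21.5 dpp, when the in vivo level was low too.

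Over the 13 group means, which share their arrays between genes, members fell into more than one pattern. Cyp17a1 had a Pearson correlation of 0.82 with Star and 0.80 with Hsd3b1, and Star one of 0.77 with Hsd3b1. Star and Hsd3b1 were below detection on most arrays, and within the conditions these values were not alike. Over the 6 culture times Cyp17a1 and Star had -0.43 and Star and Hsd3b1 -0.84, while Cyp17a1 and Hsd3b1 had 0.15 over the 7 in vivo ages. Scarb1 and Nr5a1 correlated at 0.87, and the main Cyp11a1 probe with Nr5a1 at 0.80. Cyp17a1 and Nr5a1 had -0.17 over all groups and -0.98 over the 6 culture times. The genes outside the members most like Cyp17a1 over the same means were Zscan5b, P2ry13, Dct, Insl3 and Cdhr5 (Pearson 0.916 to 0.944), and those most like the members' mean were Spink4, Asb2, Kcne1l, Dleu7 and Pphln1 (0.945 to 0.955). These values are descriptions of 13 means.

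Genes that serve the pathway were called in both directions. Of 36 redox partners and other steroid enzymes 17 were measured, and 1 was called higher and 3 lower in culture at 9.5 dpp, with 5 higher and 1 lower at 21.5 dpp. Over all genes 8.71% and 35.9% were called in either direction at these ages. Hsd17b1, best known for estradiol synthesis, was lower in culture at 9.5 dpp (-1.95 ± 0.51) but 12.9-fold higher at 21.5 dpp (limma, adjusted p = 0.0062 and 3.89e-07). Hsd11b1, which regenerates active glucocorticoid, was higher in culture at 9.5 dpp (1.78, with overlap) and at 16.5 dpp (2.05, adjusted p = 0.00337). Cyb5a, which aids the lyase reaction of Cyp17a1, was not called at any culture age, with 0.97 at 21.5 dpp (adjusted p = 2.68e-06, under 2-fold). Probes for Fdx1, the electron donor of Cyp11a1, were detected on no array, and Fdxr and Por had none under those symbols.

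Of 24 genes of cholesterol supply 18 were measured, with 2 called higher and 1 lower in culture at 9.5 dpp and 5, each higher, at 21.5 dpp. Over all genes 4.69% were called higher and 4.02% lower at 9.5 dpp, and 20% and 15.9% at 21.5 dpp. The counts of this list and of those below were not tested against these shares. Tspo, an outer mitochondrial membrane protein once placed in cholesterol import, was higher in culture at 9.5 dpp (1.26 ± 0.28, limma adjusted p = 0.0013) and at 21.5 dpp (1.64, adjusted p = 7.8e-06). Lipa, the lysosomal lipase that frees cholesterol, was 5.05-fold higher at 21.5 dpp, and Apoe was 4.07-fold higher (adjusted p = 2.17e-09 and 8.21e-06). Macrophages also express Apoe and Lipa, and their marker sum at 21.5 dpp is given above. In the list of signalling through cyclic AMP, 20 of 24 genes were measured. Adcy6, an adenylyl cyclase, was the 1 called at 9.5 dpp (1.46 ± 0.25 higher in culture, adjusted p = 0.000102), and 5 were higher and 2 lower at 21.5 dpp. The 2 lower ones were Crem (6.48-fold) and Pde4a (at least 4.9-fold). The Pde4a probe was detected on 3 of the 38 arrays, the fewest that the detection rule admits. Its call thus rests partly on the values that let it into the test. Crem is abundant in spermatids, whose markers were low in culture at that age. The part of that in the values of Crem and Pde4a was not tested.

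Of 30 transcription regulators of steroidogenesis 16 were measured, with 3 called higher and 1 lower in culture at 9.5 dpp and 7 higher and 1 lower at 21.5 dpp. Beside them stand 4.69% higher and 4.02% lower of all genes at 9.5 dpp, and 20% and 15.9% at 21.5 dpp. Cebpb, which responds to hormone and inflammation, was 2.84-fold higher at 9.5 dpp (limma, adjusted p = 0.00209) and 3.79-fold higher at 21.5 dpp. Esr1, the estrogen receptor of Leydig cells, was at least 1.99-fold lower at 9.5 dpp and below detection on all 3 cultures (adjusted p = 3.23e-07). Nr0b1, a repressor of Nr5a1, and Nr4a1 had probes detected on no array. Among 7 measured of 12 cytokine signals, Tgfb3 was higher in culture at all 6 ages (1.17 to 1.64) and Il1b was at least 1.84-fold higher at 9.5 dpp (adjusted p = 8.49e-06). The Il1b probe was likewise detected on 3 of the 38 arrays, so its call rests partly on the values that let it into the test. Amh, a Sertoli cell hormone that restrains Leydig cells, was 11.9-fold lower in culture at 9.5 dpp and 6.26-fold higher at 21.5 dpp (adjusted p = 4.8e-06 and 3.1e-05). Of 26 other Leydig cell genes 22 were measured, with 2 higher and 4 lower at 9.5 dpp and 7 higher and 4 lower at 21.5 dpp, beside the same shares of all genes. The protease genes Klk1b27 and Klk1b24 were 6.49-fold and 6.03-fold lower in culture at 21.5 dpp, whereas Dlk1, found in immature stromal and fetal Leydig cells, was 7.5-fold higher and Thbs2 6.99-fold higher (adjusted p = 2.02e-05, 6.43e-05, 2.84e-09 and 7.32e-12).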

How the data were processed

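Total RNA of 39 mouse testis samples was read on Illumina bead arrays; per the labels, Trizol extraction was followed by column clean-up and DNase digestion, a Bioanalyser check and amplification to biotinylated cRNA. The deposited table of signals holds non-normalized intensity values and a detection p-value per probe, per the file headers. A second table the authors deposited holds log2 values, made with lumi per the submitters' processing notes. Signal columns were matched to samples by name, which left 1 signal column unused, and 38 arrays were used.

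Intensities were corrected with normal-exponential deconvolution on implied negative controls (936) and quantile-normalized with an offset of 16 (neqc, limma 3.58.1 in R 4.3.3). Probes with detection p below 0.01 on at least 3 arrays were kept (23665, of which 19924 had a single symbol). In the platform annotation 34885 probes had 1 symbol, 18 several and 10378 none. The brightest probe stood for a gene. A single limma model with all 13 groups (25 residual degrees of freedom, trended variance) was fitted over 12518 genes, or over all kept probes for second probes, and p-values were adjusted by Benjamini-Hochberg over all of them. Where all arrays of a group were below detection, a fold is a bound, for which each value was raised to the dimmest detected probe of the same array. The steps were tested on simulated data. Precision is limited by the number of arrays. The members and the gene lists were chosen with earlier results of these data known. Named genes were the members, neighbours of their steps, up to 4 called genes of a list in a comparison, and the 5 most alike. Promoter windows are RefSeq's (GRCm38.p6). No probe sequences were used here.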

Additional observations from a re-analysis of the deposited data

Results flagged for a closer look

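These 5 results were picked out because a test of the difference between contrasts passed: the change of a gene with age, or its culture gap, was not the same in both conditions or at both ages. From 14.5 to 21.5 dpp, the change of Cyp17a1 in culture minus its change in vivo was -3.35 ± 1.24 (SE, limma adjusted p = 0.0318). The call was lost without in vivo 14.5 dpp replicate 1 (-2.64, adjusted p = 0.11) or 3 (-2.77, adjusted p = 0.097), and without in vivo 21.5 dpp replicate 2 or 3, culture 21.5 dpp replicate 2 or 3, or culture 14.5 dpp replicate 1 or 3 (-3.34 to -3.04, adjusted p = 0.0511 to 0.0716). The same test gave -2.08 ± 0.78 for Hsd17b3 (adjusted p = 0.0345), lost without in vivo 14.5 dpp replicate 2 or 3, in vivo 21.5 dpp replicate 3, culture 21.5 dpp replicate 2 or culture 14.5 dpp replicate 1 or 3 (-2.10 to -1.55, adjusted p = 0.0518 to 0.131). It was lost too with median centring (-1.50, adjusted p = 0.0998) and with either set of authors' values (-0.90, adjusted p = 0.0817 and 0.0878).

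The culture gap at 21.5 dpp minus that at 9.5 dpp was 1.43 ± 0.41 for the main Cyp11a1 probe (limma, adjusted p = 0.00467) and 2.52 ± 0.78 for Hsd17b3 (adjusted p = 0.00837). Without the 5 arrays that stood apart these were 1.07 (adjusted p = 0.021) and 1.93 (adjusted p = 0.0416). The Cyp11a1 value was under 2-fold, and so not called, with either set of authors' values (0.42) and without background correction (0.86). For the second Nr5a1 probe it was 1.27 ± 0.49 (adjusted p = 0.0325), and 0.91 (adjusted p = 0.126) without those arrays. With either set of authors' values it was 0.34 and without background correction 0.73, neither called. That call was also lost without in vivo 9.5 dpp replicate 2 (0.91, adjusted p = 0.117), and without in vivo 21.5 dpp replicate 2 or 3, culture 21.5 dpp replicate 1 or 3, or culture 9.5 dpp replicate 2 or 3 (1.18 to 1.27, adjusted p = 0.051 to 0.0697).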

How the results depend on the processing

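Within a probe, no called result of the members turned its direction in the alternatives run. Between the 2 Cyp11a1 probes 1 did, in vivo 21.5 against 14.5 dpp. It was -1.50 with the main probe and 1.36 with the second (limma over all kept probes, adjusted p = 6.2e-05 and 0.0221). Differences that were not called did change sign, in 22 cases under other settings and 65 with 1 array left out: without the 5 arrays, culture minus in vivo at 9.5 dpp was 0.14 for Star (-0.40 with them) and 0.10 for Nr5a1 (-0.34 with them). Of 1376 values recomputed for single members, 1298 stayed on their side of the threshold, 63 were no longer past it and 15 newly passed. The number of members called was 2 at 11.5 dpp (culture against in vivo) and became 1 with the authors' values on the same arrays or all 39 samples, without background correction, with probes detected on every array of a group, and with only the compared groups fitted. At 13.5 dpp 1 became 2 with median centring and without the 5 arrays. At 14.5 dpp 0 became 1 with only the compared groups. At 16.5 dpp 1 became 0 with either set of authors' values, without background correction, without the detection filter and with only the compared groups. At 21.5 dpp 1 became 2 with median centring, with the other probe of Cyp11a1 and Nr5a1, and with no minimum fold. In vivo 9.5 against 7.5 dpp, 0 became 1 with the other probe. For 21.5 against 7.5 dpp 3 became 1 with either set of authors' values, and for 21.5 against 14.5 dpp 2 became 1 with these and without background correction. Day 7 and day 14 against the start had 3 each, and both had 2, without Star, with either set of authors' values and without background correction, and 2 with probes detected on every array of a group. Day 7 had 4 with median centring, and day 14 had 5 with no minimum fold. Day 14 against day 2 had 1, with 0 under either set of authors' values and without background correction, and 2 with no minimum fold or only the compared groups. The change from 14.5 to 21.5 dpp had 2, and 1 with either set of authors' values. The gap at 21.5 minus 9.5 dpp had 2, and 1 with these or without background correction. With probes detected on every array of a group, Star and Hsd3b1 left the test, since neither was detected on all arrays of any group. The cause of the other changes was not tested. The setting with the other probes, the one without the 5 arrays and the authors' values of all 39 samples were chosen after seeing the data.

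Leaving out 1 array at a time gave 2 to 3 members at 9.5 dpp, 1 to 2 at 11.5 dpp, 1 at 13.5 dpp, 0 to 1 at 14.5 and at 16.5 dpp, and 1 to 2 at 21.5 dpp. It gave 0 for in vivo 9.5, 1 to 2 for 14.5 and 3 for 21.5 against 7.5 dpp, and 2 to 3 for 21.5 against 14.5 dpp. In culture it gave 2 at day 2, 2 to 3 at day 7 and 2 to 4 at day 14 against the start, 1 to 2 for day 14 against day 2, 0 to 2 for the change from 14.5 to 21.5 dpp and 2 to 3 for the gap.

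A replicate block left the number at 2 at 9.5 dpp and changed no call. Same-numbered culture and in vivo arrays of an age shared little, as 2 of 17 pairs had a correlation of deviations above 0.1. Over all groups, same-numbered arrays had a mean of 0.051 (other numbers -0.025). There 25 of 38 arrays were closest to their own number, more than 3 unrelated numbers would give. Some sharing by replicate number across groups is thus not excluded.

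Over all genes, 1090 were called at 9.5 dpp, and 293 with the authors' values. Median centring moved the median of all genes from 0.01 to -0.27 at 14.5 dpp, from -0.06 to -0.35 at 13.5 dpp, from -0.01 to -0.35 for day 7 against the start and from 0.24 to 0.67 for the change from 14.5 to 21.5 dpp. The share of higher calls was 49.2% and 14% at 14.5 dpp, 60% and 23.6% at 13.5 dpp, 51% and 13% at day 7, and 54.9% and 78.8% for that change, before and after centring. Star and Hsd3b1 lay near background, which limits their differences.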
